A study of Homo sapiens with 2 samples.

Results

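The 8 genes described here encode the chromosomal passenger complex, the Aurora kinases A and B and their closest partners in mitosis: AURKA, AURKB, BIRC5, INCENP, CDCA8, TPX2, BORA and SGO1. They were taken by name from 38659 annotated protein-coding and lncRNA genes, and a peak was assigned to a gene where it overlapped the 1000 bp on either side of any of its annotated transcription start sites (TSSs). The peaks came from chromatin immunoprecipitation followed by sequencing (ChIP-seq) of A673, an established Ewing sarcoma (EwS) cell line, with a rabbit monoclonal antibody labelled anti-MYBL2, which per the study's methods recognises the phosphorylated, activated protein. The 2 samples were 1 MYBL2 ChIP and, as its control, 1 input (sheared chromatin that was not immunoprecipitated), both labelled as wild-type cells of this line. With 1 library per group no difference could be tested against replicates, and since neither of these 2 samples measures expression, the identity of the cells was not checked by marker genes.

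The chromosomal passenger complex joins the kinase Aurora B to the scaffold INCENP and to survivin (BIRC5) and borealin (CDCA8), which bring it to centromeres and later to the spindle midzone. Aurora A acts at centrosomes and spindle poles, where TPX2 activates it on microtubules and BORA helps it to activate PLK1, while shugoshin 1 (SGO1) protects the cohesin at centromeres. Genes of this kind are transcribed late in the cell cycle, and MYBL2 is known as the partner of the MuvB complex on their promoters, where the cell cycle genes homology region (CHR) contacts MuvB and CCAAT boxes bind NF-Y.

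All 8 genes carried a MYBL2 peak at their start, as did 41.9% of all annotated genes. In all 8 a CHR element lay within 50 bp of the summit, against 3.93% of protein-coding genes with a promoter peak. The stretches from 150 bp upstream to 29 bp downstream of the canonical TSS, the start of the transcript that the annotation marks as canonical, are shown for 5 genes to make the order and spacing of the elements visible. They are printed in the direction of transcription, with matches on either strand in capitals. The capitals mark CHR elements, spelled TTTGAA or, in a variant form that also occurs in these promoters, spelled TTCGAA, the boxes spelled CCAAT, and MYB sites, the word AACGG. AURKB (chr17:8113864-8114043, minus strand) is shown for the commonest arrangement, with CCAAT boxes upstream of a CHR. AURKA (chr20:54967242-54967421, minus strand) is shown for its MYB site beside the CHR, and BORA (chr13:73301911-73302090, plus strand) for a CHR upstream of the CCAAT boxes. SGO1 (chr3:20227669-20227848, minus strand) is shown for the TTCGAA form of the CHR, and CDCA8 (chr1:38158038-38158217, plus strand) for a CHR that overlaps a CCAAT box in 1 base. All positions are in GRCh37, which has the coordinates of hg19.
AURKB: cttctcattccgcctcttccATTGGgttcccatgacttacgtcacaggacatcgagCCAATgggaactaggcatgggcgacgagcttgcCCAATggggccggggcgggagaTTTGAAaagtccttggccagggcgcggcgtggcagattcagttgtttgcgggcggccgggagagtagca
AURKA: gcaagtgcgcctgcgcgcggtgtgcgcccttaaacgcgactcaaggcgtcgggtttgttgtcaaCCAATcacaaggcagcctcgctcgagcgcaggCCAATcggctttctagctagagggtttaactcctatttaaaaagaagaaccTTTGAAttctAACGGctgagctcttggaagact
BORA: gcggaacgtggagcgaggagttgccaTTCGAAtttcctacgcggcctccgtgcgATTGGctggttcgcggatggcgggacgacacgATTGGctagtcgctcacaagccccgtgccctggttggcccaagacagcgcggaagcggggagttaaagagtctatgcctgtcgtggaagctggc
SGO1: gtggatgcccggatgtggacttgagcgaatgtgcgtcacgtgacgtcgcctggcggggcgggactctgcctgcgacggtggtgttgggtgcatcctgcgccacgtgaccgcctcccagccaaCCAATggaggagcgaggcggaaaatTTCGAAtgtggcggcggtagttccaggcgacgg
CDCA8: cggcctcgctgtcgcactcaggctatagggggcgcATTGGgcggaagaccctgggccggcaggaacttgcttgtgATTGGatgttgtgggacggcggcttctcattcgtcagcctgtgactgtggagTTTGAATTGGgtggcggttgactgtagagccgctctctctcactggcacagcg

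A promoter peak was present at 8 of 8 genes, against 41.9% of all annotated genes and 59.4% of the 20087 protein-coding genes. The peak caller's fold enrichment, which adds 1 to the fragments stacked at the summit (the pileup) and divides by a local background, set from the input, to which 1 is also added, was at least 5 at the best promoter peak of 8 of 8 genes, where 49.6% of protein-coding genes reached this value. It was at least 10 at 7 of 8 genes, all but CDCA8, against 23.1%. Over the 8 genes the best promoter peaks had a median of 15.1, beside 8.67 (quartiles 5.94 and 12.1) over the 11938 protein-coding genes with a promoter peak. In the plot of fold enrichment, 7 of the 8 genes lay to the right of the upper quartile and CDCA8 lay on the dashed line.

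**Figure D1:**
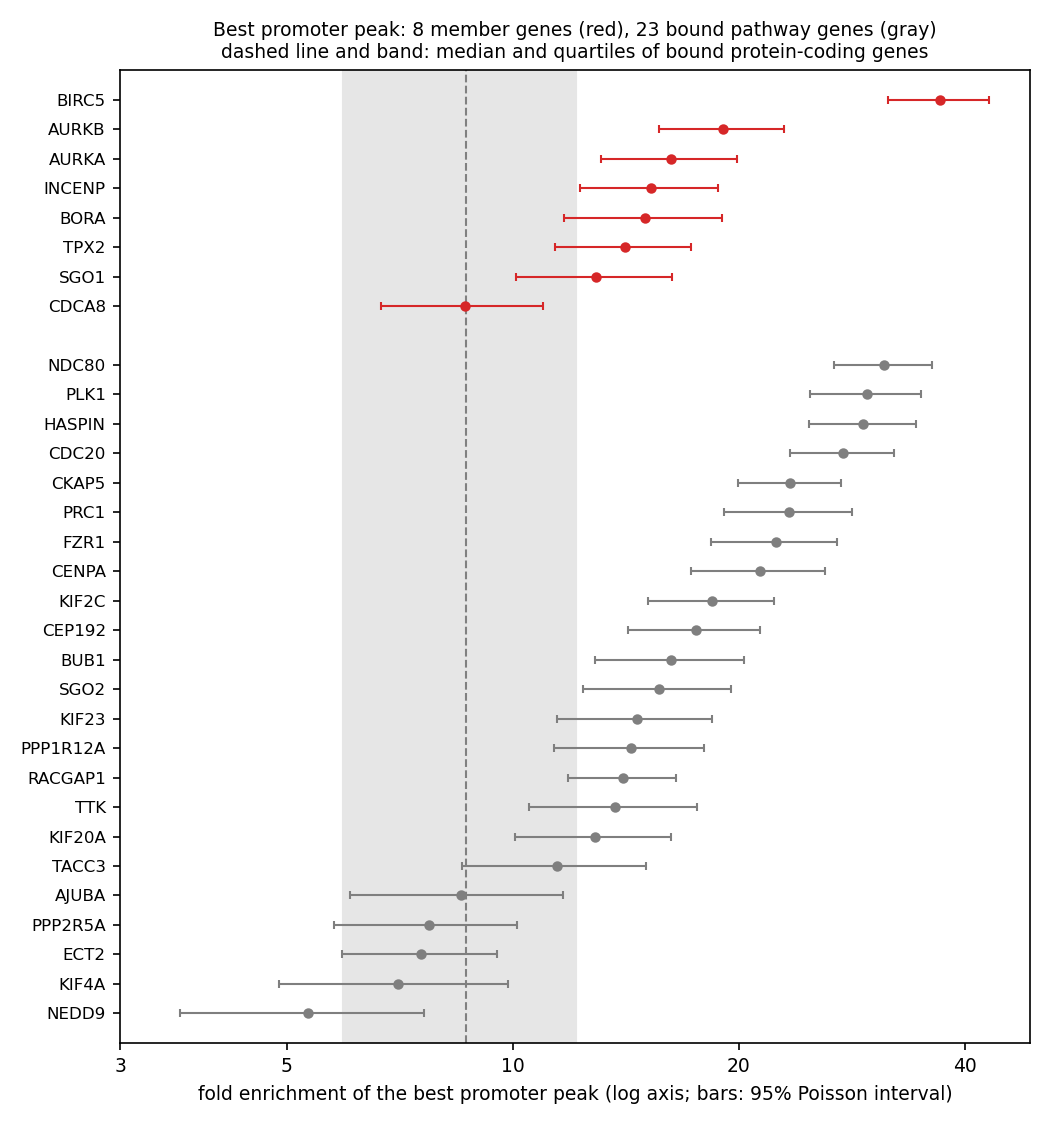
Fold enrichment of the best promoter peak (log axis) of the 8 chromosomal passenger and Aurora genes (red) and of 23 other genes of Aurora and chromosomal passenger function with a promoter peak (gray), with 95% Poisson intervals of the pileup, from 1 ChIP library. BIRC5 stood at 37.1, the next 6 genes between 12.9 and 19.1, and CDCA8 at 8.63, on the dashed median of protein-coding genes (8.67, with the quartiles as a band).

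Of neighbours in the order of the 8 genes, BIRC5 and AURKB alone had intervals that did not overlap. Pileups are given with exact 95% Poisson limits, and intervals of a fold enrichment put these limits through its formula, with 1 added to pileup and background. Both cover counting error only. Among the 28 pairs of genes, 12 had intervals that did not overlap: those of BIRC5 with each of the 7 others, and those of CDCA8 with AURKB, AURKA, INCENP, BORA and TPX2. From AURKB down to SGO1 every interval overlapped that of the next gene, and SGO1 and CDCA8, neighbours at the lower end, overlapped too, which does not show that these promoters were bound alike. Ranked by pileup in place of fold enrichment, BIRC5, AURKB and CDCA8 kept the first, the second and the last place, and TPX2 moved from the sixth place to the third.

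Among the Aurora kinases, AURKB (ENSG00000178999; chr17:8108051-8113918, minus strand), the catalytic subunit of the passenger complex, had the higher fold enrichment at its start. Its best peak (chr17:8113039-8114216, 1178 bp wide) had 107 fragments at the summit (95% interval 87.7 to 129) over a background of 4.66, a fold enrichment of 19.1 (15.7 to 23.0), and ranked 724 of all 66954 peaks. The summit lay 20 bp upstream of the canonical TSS and 5 bp inside the gene from its nearest annotated start. AURKB also carried 4 more promoter peaks, the most in the group, but these lay at alternative starts inside the gene, 1122 to 2958 bp downstream of the canonical TSS, with fold enrichments of only 3.03 to 4.72. No other gene of the annotation shared the promoter peak of AURKB. The nearest other start was that of LINC00324, 13448 bp upstream of the summit, whose own best peak had a fold enrichment of 6.00.

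AURKA (ENSG00000087586; chr20:54944445-54967393, minus strand), the kinase of the spindle poles, had 1 promoter peak (chr20:54966027-54968101). At 2075 bp it was the widest of the group and wider than 92.1% of the best peaks of protein-coding genes. Its summit, in the 5′ UTR 24 bp downstream of the canonical TSS, held 91 fragments (73.3 to 112) over a background of 4.66, a fold enrichment of 16.2 (13.1 to 19.9). This interval overlapped that of AURKB. The peak also covered the start of CSTF1, which encodes a subunit of the cleavage stimulation factor of mRNA 3′ ends and runs on the opposite strand with its canonical TSS 430 bp upstream of that of AURKA, so the signal cannot be given to one gene alone.

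The noncatalytic subunits of the passenger complex spanned the whole range of the group. BIRC5 (ENSG00000089685; chr17:76210267-76221717, plus strand), which encodes survivin, held the strongest peak (chr17:76210035-76211208, 1174 bp wide). Its summit, 12 bp upstream of the canonical TSS, had 164 fragments (140 to 191) over a background of 3.45, the lowest value that the caller used anywhere. The fold enrichment of 37.1 (31.6 to 43.2) was 1.94 times that of AURKB and ranked 77 of all peaks. It exceeded that of 99.2% of protein-coding genes with a promoter peak. As with AURKB, no other gene shared this promoter peak. The nearest other start was an alternative start of AFMID, an enzyme gene of tryptophan breakdown, 11520 bp upstream of the summit. The canonical TSS of AFMID lay 26891 bp upstream of that of BIRC5. Over all its starts the best peak of AFMID had a fold enrichment of 18.3. A further 2 promoter peaks of BIRC5, centred 1577 and 2106 bp downstream of the canonical TSS, had fold enrichments of 4.65 and 6.34.

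INCENP (ENSG00000149503; chr11:61891470-61920641, plus strand), the scaffold that binds and activates Aurora B, had its best peak at chr11:61890977-61892210 (1234 bp). The summit lay in the 5′ UTR 21 bp downstream of the canonical TSS, with 89 fragments (71.5 to 110) and a fold enrichment of 15.3 (12.3 to 18.7). The lncRNA gene ENSG00000285656, on the opposite strand with its start 244 bp upstream, shared this peak. A second, weak promoter peak at an internal start, 6717 bp downstream of the canonical TSS, had a fold enrichment of 3.30.

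CDCA8 (ENSG00000134690; chr1:38158153-38175391, plus strand), which encodes borealin, had the weakest best peak (chr1:38157472-38158776, 1305 bp wide). The summit lay 34 bp upstream of the canonical TSS and 1 bp inside the gene from its nearest start, with 64 fragments (49.3 to 81.7) and a fold enrichment of 8.63 (6.68 to 11.0), above 49.4% of protein-coding genes with a promoter peak. Its background of 6.53 fragments was the highest of the 8, at 1.89 times the lowest value in the list, where BIRC5 stood at 1 and the median of the group was 1.35. The part of the background in the low ratio was not tested. The pileup of CDCA8 was also the lowest. The pileup interval of CDCA8 overlapped the pileup intervals of SGO1, BORA, INCENP, AURKA and TPX2, but not those of AURKB and BIRC5. A stronger peak stood next to that of CDCA8. The neighbouring gene C1orf109, on the opposite strand, had its best peak at chr1:38155921-38156831, with 88 fragments (70.6 to 108) and a fold enrichment of 18.05 (14.5 to 22.2). That summit lay 63 bp upstream of the canonical TSS of C1orf109 and 1924 bp upstream of that of CDCA8, outside the promoter window used for CDCA8. The best CDCA8 peak also overlapped the promoter window of C1orf109, as did a weak peak between them with a fold enrichment of 3.29.

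The partners of Aurora A gave values close to each other. BORA (ENSG00000136122; chr13:73301887-73330336, plus strand), the cofactor of Aurora A in the activation of PLK1, had 1 promoter peak (chr13:73301431-73302679, 1249 bp wide) with 68 fragments (52.8 to 86.2) over a background of 3.60, a fold enrichment of 15.0 (11.7 to 19.0). Its summit was the only one of the 8 more than 50 bp from the canonical TSS, at 135 bp upstream, yet it lay 36 bp downstream of another annotated BORA start. MZT1, which encodes a small protein of the gamma-tubulin ring complex, starts 294 bp upstream on the opposite strand and shared the peak.

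TPX2 (ENSG00000088325; chr20:30327074-30389608, plus strand), the activator of Aurora A on spindle microtubules, had 1 promoter peak (chr20:30326281-30327594, 1314 bp wide). The summit, 33 bp upstream of the canonical TSS, held 92 fragments (74.2 to 113), the third highest pileup of the group, over a background of 5.60. The fold enrichment was 14.1 (11.4 to 17.3). The lncRNA gene ENSG00000289492 starts 177 bp upstream on the opposite strand and shared this peak.

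SGO1 (ENSG00000129810; chr3:20202085-20227698, minus strand), the protector of centromeric cohesin, had the narrowest best peak (chr3:20227230-20228187, 958 bp). Its summit lay in the 5′ UTR 25 bp downstream of the canonical TSS, with 69 fragments (53.7 to 87.3) over a background of 4.42, a fold enrichment of 12.9 (10.1 to 16.3). This was above 78.7% of protein-coding genes with a promoter peak. The antisense gene SGO1-AS1 starts 149 bp upstream and shared the peak.

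The best peaks of the 8 genes were sharply placed. The summit lay within 50 bp of the canonical TSS in 7 of 8 genes, against 25.4% of protein-coding genes with a promoter peak, and within 50 bp of any annotated start in 8 of 8, against 40.7%. The median distance to the canonical TSS was 24.5 bp in the group and 126 bp over protein-coding genes. The median width of 1241.5 bp was larger than the 865 bp of all best promoter peaks of protein-coding genes, but peaks of like strength had a similar median: the 3094 best peaks with a fold enrichment of 10 to 20 had a median of 1200.5 bp (quartiles 866.5 and 1620). The remaining 8 of the 16 promoter peaks of the group were narrow (164 to 274 bp) and weak (3.03 to 6.34). More than 1 promoter peak was found in 4 of 8 genes, AURKB, BIRC5, INCENP and CDCA8, against 46.9%.

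The best peak reached the promoter window of a gene on the opposite strand in 6 of 8 genes, where 43.9% of protein-coding genes with a promoter peak had such a neighbour. The 2 exceptions were the strongest genes, BIRC5 and AURKB. Over protein-coding genes the relation ran the other way, with a median fold enrichment of 9.92 for the 5240 best peaks shared with an opposite gene and 7.64 for the 6698 others. As said of AURKA, the signal of a peak shared in this way cannot be given to a single gene, which holds for all 6 genes.

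**Figure D2:**
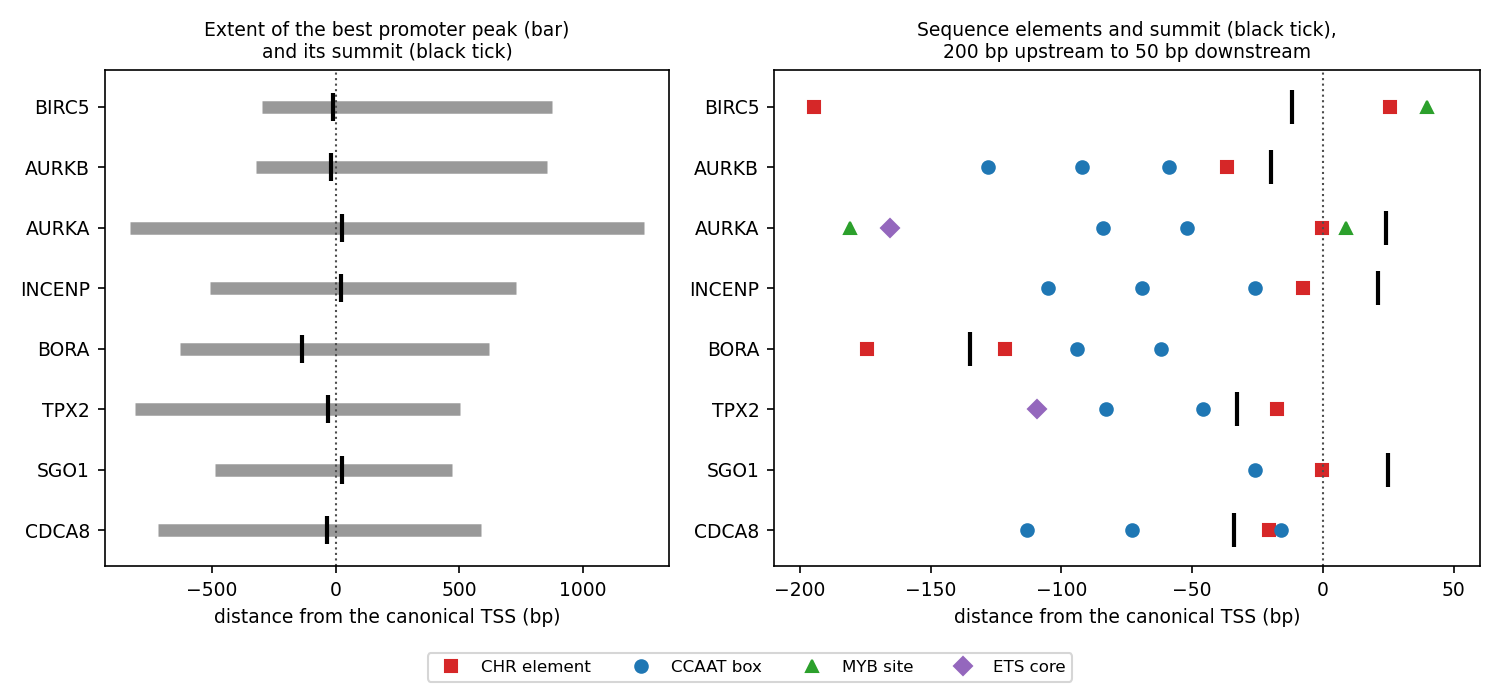
Left, extent of the best promoter peak (bar) and its summit (tick) of each gene, in bp from the canonical TSS in the direction of transcription, and right, the summit with the sequence elements from 200 bp upstream to 50 bp downstream. A CHR element (red square) stood within 50 bp of each summit, and 1 or more CCAAT boxes (blue circles) lay in each window but that of BIRC5.

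The 5 short sequence elements were sought on both strands of the window from 200 bp upstream to 50 bp downstream of the canonical TSS. A CHR element was present in 8 of 8 genes, against 10.1% of 19809 protein-coding promoters, and a CCAAT box in 7 of 8, all but BIRC5, against 32.2%. Both stood together in 7 of 8 windows, against 4.06%. A MYB site (AACGG), a form of the core that MYB proteins bind, was found in AURKA and BIRC5 only, 2 of 8, against 18.8%. Other spellings of this core were not sought. None of the E2F sites searched (TTCGCGC with its variant TTGGCGC and, besides these, TTCCCGC) lay in any of the 8 windows, where 12.7% of promoters held one, and the ETS core CCGGAAGT was found in AURKA and TPX2, 2 of 8, against 5.87%. A match is a run of letters and not a measured site.

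The same elements were then counted around the summits. Within 50 bp of the best summit a CHR lay in 8 of 8 genes and in 3.93% of protein-coding genes with a promoter peak. Protein-coding genes with peaks of like strength were set beside them. Among those with a fold enrichment of at least 10, 5.11% of 4640 had a CHR at the summit. Of the 1415 among these with a summit within 50 bp of the canonical TSS, 6.22% had one. All 7 and all 6 genes of the group in these classes had one. Of the 23 other pathway genes with a peak, 7 had one. The classes were not matched for cell cycle genes. The 8 genes and the elements were chosen with the CHR at G2/M promoters known, so this contrast is not independent support. The distance from the summit to the centre of the nearest CHR was 13 bp in BORA and CDCA8, 15 bp in TPX2, 17 bp in AURKB, 25 bp in AURKA, 26 bp in SGO1, 29 bp in INCENP and 37 bp in BIRC5. A CCAAT box was this close in 5 of 8 genes (AURKB, INCENP, CDCA8, TPX2 and BORA), against 10%. A MYB site was this close in AURKA alone, 1 of 8 against 11.4%, and no E2F site or ETS core was, against 7.55% and 3.71%. Over all protein-coding genes with a promoter peak, the median fold enrichment was 10.1 in the 468 whose summit had a CHR and 8.65 in the 11447 others.

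**Figure D3:**
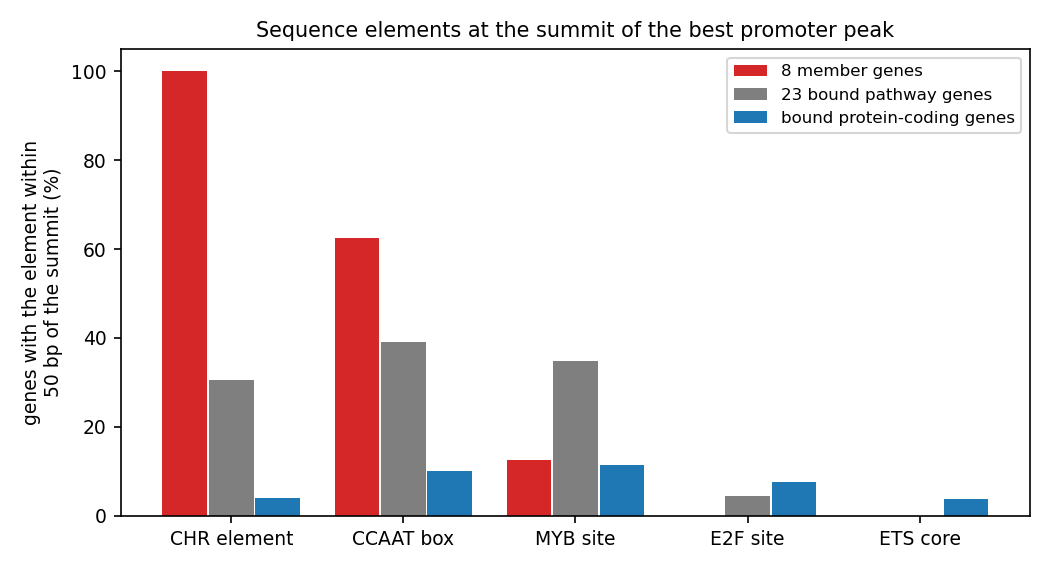
Share of genes with each sequence element within 50 bp of the summit of the best promoter peak, for the 8 chromosomal passenger and Aurora genes, 23 other genes of the pathway and all protein-coding genes with a promoter peak. The CHR bar stood at 8 of 8 genes beside 7 of 23 and 3.93%, while for the MYB site the 8 genes (1 of 8) lay near the protein-coding genes (11.4%) and the other pathway genes higher (8 of 23).

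The order of the elements was shared by most of these promoters. How often other promoters have this order or spacing was not counted. Spacings are counted from the first base of one element to the first base of the next. In AURKB 3 CCAAT boxes were spaced 36 and 33 bp apart, and the CHR followed 22 bp after the last. INCENP had the same plan, with CCAAT boxes 36 and 43 bp apart and the CHR 18 bp further on. In AURKA the boxes stood 32 bp apart with the CHR 51 bp after them at the TSS itself, and in TPX2 37 bp apart with the CHR, here in reverse orientation, 28 bp after them. SGO1 had a single box 25 bp before its TTCGAA. Over the group the spacing of neighbouring CCAAT boxes was 32 to 57 bp, with a median of 36 bp over 9 spacings in 6 genes. BORA and CDCA8 departed from this order. In BORA, whose summit was the most distant from the canonical TSS, the CHR elements at -177 and -124 lay upstream of CCAAT boxes at -96 and -64. This holds in the direction of BORA. Read in the direction of MZT1, which shares the peak on the opposite strand, the boxes come before the CHR elements. In CDCA8 the CHR shared a base with the last of 3 boxes. BIRC5 had no CCAAT box and carried its CHR elements at -197 and at 23 bp downstream of the TSS, the second within the summit window.

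**Figure D4:**
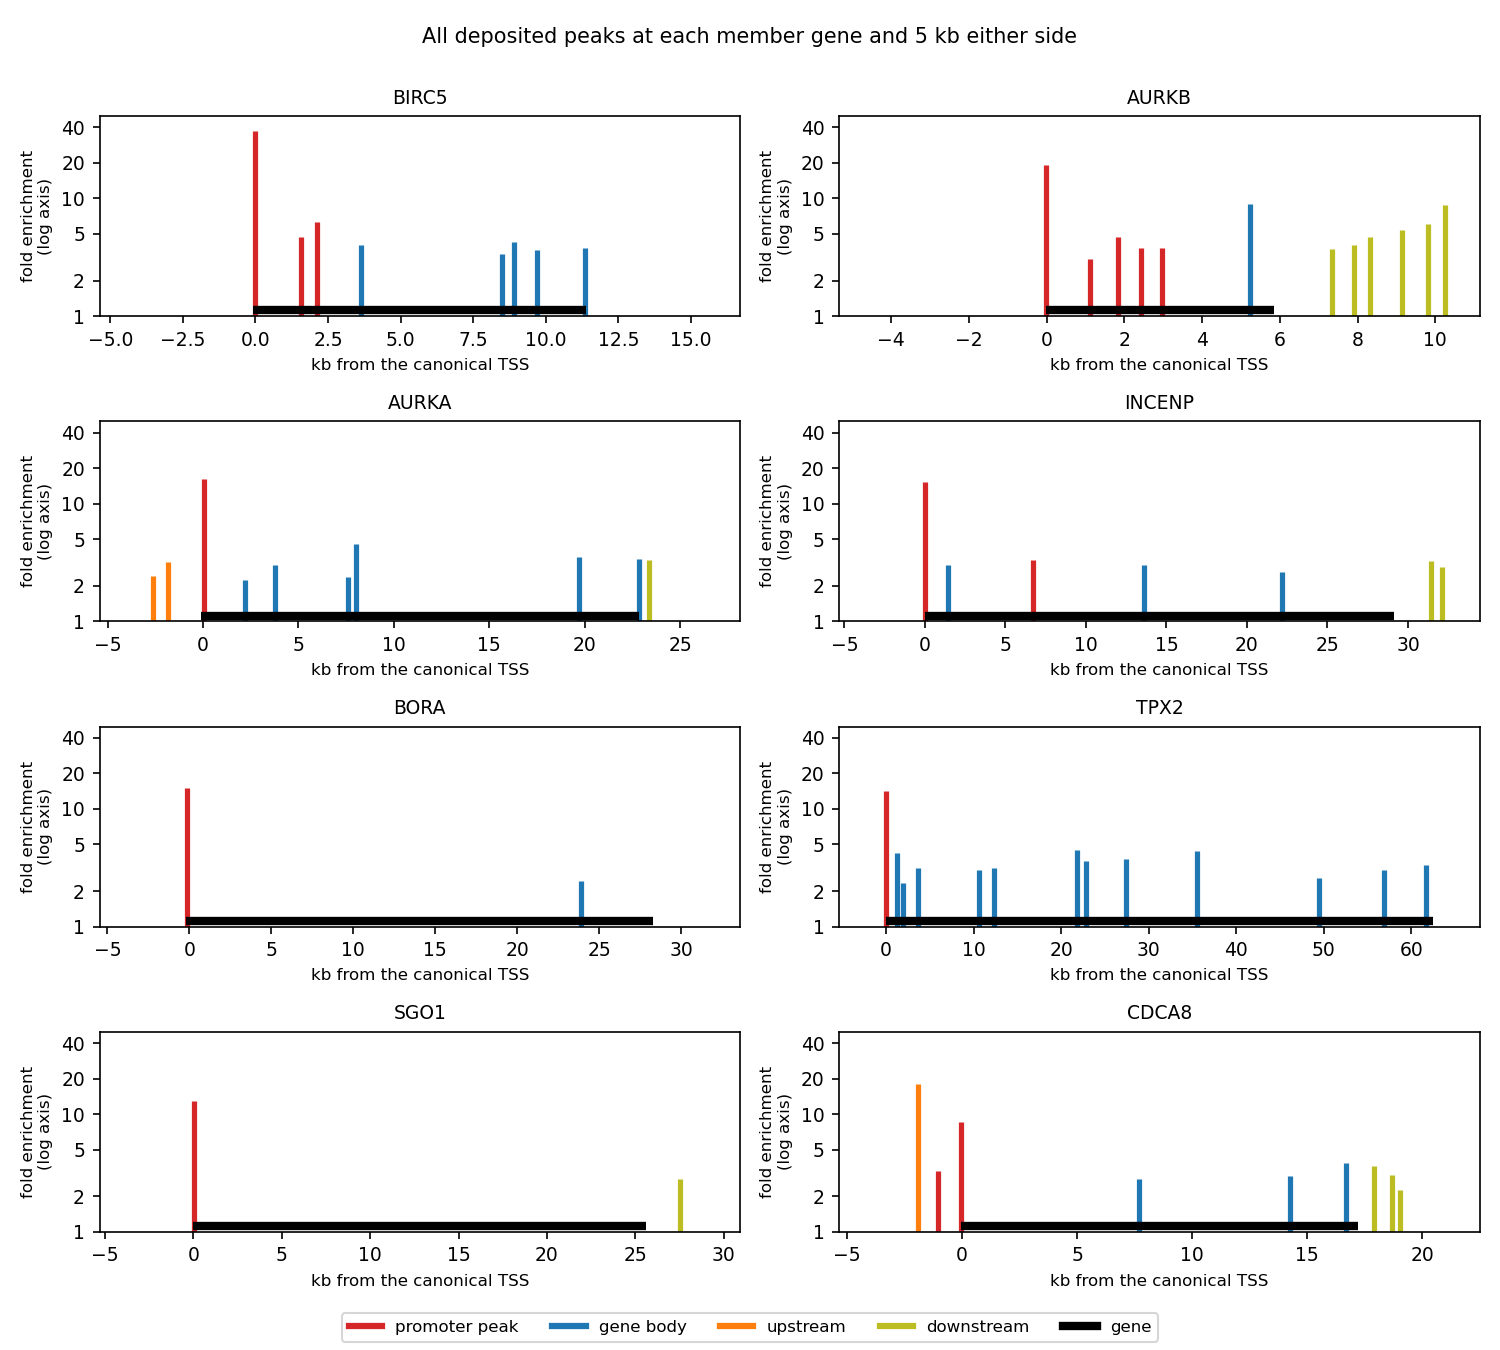
Fold enrichment (log axis) of each deposited peak at the 8 genes and 5 kb on either side, against the distance of its summit from the canonical TSS in kb, coloured by position, with the gene as a black bar. In 7 genes the promoter peak was the tallest, with a row of weaker peaks through the gene in TPX2, AURKA and BIRC5 and beyond the 3′ end in AURKB. At CDCA8 the tallest, at 18.05, was that of the neighbour C1orf109 upstream.

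Inside the genes the signal was weak. The 8 genes and 5000 bp on either side held 63 peaks, of which 31 lay in a gene body outside its promoter windows, with fold enrichments of 2.26 to 8.99 and a median of 3.31. Such a body peak was present in 7 of 8 genes, all but SGO1, against 49.2% of 6907 protein-coding genes with a promoter peak and of the same range of lengths, 5868 to 62535 bp. TPX2, the longest gene, had 12. Per 10 kb the number of body peaks was 4.37 in BIRC5, 2.61 in AURKA, 1.92 in TPX2, 1.74 in CDCA8, 1.70 in AURKB, 1.03 in INCENP and 0.351 in BORA, where the protein-coding genes of these lengths had a median of 0 and an upper quartile of 0.977. A peak outside the promoter windows, in the gene or beyond it, lay within 1000 bp of the 3′ end in 5 of 8 genes (AURKA, AURKB, BIRC5, CDCA8 and TPX2), against 29.4%. The comparison genes here were matched for length but not for the strength of their promoter peaks or for local background.

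AURKB had the strongest body peak of the group, at its 3′ end. This peak of 1020 bp (chr17:8107926-8108945) covered the end of the gene with 39 fragments (27.7 to 53.3) and a fold enrichment of 8.99 (6.45 to 12.2), the only 1 of the 31 body peaks at or above 5. Beyond it, 6 more peaks between chr17:8103418 and 8106701 had fold enrichments of 3.71 to 8.76. The farthest of them, 10242 bp from the AURKB start, was the strongest at 8.76 (6.27 to 11.9). The annotation has no protein-coding or lncRNA gene between AURKB and BORCS6, a gene on the same strand whose start lies at position 8093498. It has a processed pseudogene there, ENSG00000271002, at positions 8102441 to 8102755. Peaks more than 5000 bp beyond AURKB were not listed, so this row of peaks may extend further.

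Of the other 24 genes of Aurora and passenger function, a list of substrates, recruiters, activators and partners, 23 had a promoter peak and all 23 reached a fold enrichment of 5, 18 of them 10, with a median of 15.7 beside 15.1 for the 8 genes. The strongest were NDC80, a kinetochore subunit that Aurora B phosphorylates, at 31.2 (26.8 to 36.2), PLK1, the kinase switched on by BORA and Aurora A, at 29.6 (24.9 to 35.0), and HASPIN, the histone kinase whose mark recruits the passenger complex, at 29.3 (24.8 to 34.5). The intervals of NDC80 and BIRC5 overlapped. The weakest were ECT2, the exchange factor of cytokinesis, at 7.56 (5.91 to 9.52), the chromokinesin KIF4A at 7.04 (4.88 to 9.85) and NEDD9, a scaffold that activates Aurora A, at 5.33 (3.61 to 7.63).

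The paralogues differed from each other. SGO2, the second shugoshin, had a best peak of 15.7 (12.4 to 19.5) with 77 fragments (60.8 to 96.2), an interval that overlapped that of SGO1, but no CHR in its promoter window. AURKC, the Aurora kinase of germ cells, was the only gene of the list with no promoter peak, and its nearest peak lay 9269 bp away. Its promoter window held no CHR either, but the windows of both SGO2 and AURKC held a CCAAT box and a MYB site. Of the 24 genes, 15 had a CHR in the promoter window, against 10.1% of protein-coding promoters. A CCAAT box was found in 19 (32.2%), both in 13 (4.06%) and a MYB site in 12 (18.8%). An E2F site was found in 4 (12.7%) and an ETS core in 1 (5.87%). At the summits of the 23 with a peak, the CHR was found in 7, against 3.93% of protein-coding genes with a promoter peak. The CCAAT box was found in 9 (10%), the MYB site in 8 (11.4%), an E2F site in 1 (7.55%) and the ETS core in 0 (3.71%).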

How the data were processed

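The study sequenced 1 MYBL2 ChIP and 1 input library of A673 cells. Per the labels, the authors aligned single-end reads to hg19 with Bowtie2 (2.1.10 in the submitters' processing notes) and called narrow peaks with MACS2 (2.0.10) against the input; what a final cleaning of the list removed is not stated. For each of the 66954 peaks, the deposited values are the fold enrichment (a linear ratio, (pileup + 1) / (local background + 1)), the −log10 p and −log10 q, and a score derived from q. The list reached down to a q of 0.0493 and holds no read totals. The pileup was recovered as the whole number that solved fold enrichment and p together, for 66954 of 66954 peaks (largest misfit 3.49e-05 in −log10 p, next whole number at least 0.038), and the lowest background was 3.45 fragments. PCR copies are not independent, so intervals cover counting error only. Recovery and overlap were tested on simulated data.

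The annotation was GENCODE 44 (20087 protein-coding and 18572 lncRNA genes) lifted to GRCh37, for chromosomes 1 to 22 and X, with 193596 TSSs. Sequences were read from GRCh37 (that of the BIRC5 promoter is not reported here), and element matches were counted over genes with a canonical transcript. Computations used Python 3.11.15, pandas 2.3.3, SciPy 1.17.1 and pysam 0.24.0. No test between groups was possible with 1 library each. The 8 genes, the list of 24 and the elements were chosen with earlier results of these data known, among them the CHR at G2/M promoters, so their counts are not independent support. Genes were named by rule: the 8, neighbours that share a promoter peak or have the nearest other TSS, AURKC and SGO2, and of the list the 3 strongest, the 3 weakest and any without a promoter peak.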

Additional observations from a re-analysis of the deposited data

How the results depend on the processing

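No paired analysis was possible because there were no replicates: ChIP and input had 1 library each. All 8 genes kept a promoter peak under each alternative tried. These were stricter peaks (at least 5 in −log10 q or in fold enrichment) and narrower (500 bp on either side) or longer (5000 bp upstream) promoter windows. The others were the summit inside the window, outermost TSSs only, and merged peaks. Most could not remove a gene. The weakest best peak, that of CDCA8, stood at 8.63 in fold enrichment and 37.2 in −log10 q, above both cut-offs. Each best summit lay within 50 bp of an annotated start, inside the narrower window. Longer windows and merging lose no peak. The number of promoter peaks fell from 16 to 9 with a fold enrichment of at least 5, and to 9 with outermost TSSs only, as weak peaks and internal starts dropped out. The share of background genes with a promoter peak moved from 41.9% to 59.4% with protein-coding genes only. The best fold enrichment of CDCA8 became 18.05 with 5000 bp upstream, since the window then took in the peak of C1orf109. With wider windows for the elements, a MYB site lay near 2 summits in place of 1 and the ETS core near 1 in place of 0 (100 bp), and E2F sites in 2 promoters in place of 0 (500 bp upstream to 100 bp downstream). The other 105 values stayed within the counting interval of a fold enrichment or 1.5 times a count. One ChIP library limits all of this: no value here has an error between cultures.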
